A study of Mus musculus with 2 samples.

Results

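The miR-130 and miR-301 family was read in the testes of mice as 5 mature miRNAs, namely mmu-miR-130a-3p, mmu-miR-130b-3p, mmu-miR-130b-5p, mmu-miR-301a-3p and mmu-miR-301b-3p (the species prefix is left out below), out of 1905 mature miRNAs counted by sncRNA-Seq. They were picked by name, at a time when the counts of both libraries, and the higher count of miR-130b-5p in exposed mice, were already known. Their exposed to control ratios are therefore described here without a test. C57BL/6 mice (C57BL/6J in the study's methods) were compared at postnatal day 60, and each group was represented by 1 library, made from RNA of pooled testes. Exposed mice were given a mixture of EDCs in the drinking water from conception to adulthood, first through the mother and then directly. The mixture held the phthalates DEHP, DBP and BBP and the alkylphenols NP and OP. Controls drank water with the vehicles of the mixture, DMSO and ethanol, which the exposed mice received as well. The spread between mice is hidden by the pooling, no library was repeated, and every interval below covers only the counting error of reads.

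A miRNA guides the silencing complex to mRNAs that pair with its seed, the bases from position 2 to 8, and so lowers their translation and stability. Each hairpin can give a 5p and a 3p mature form from its arms, and usually one of them is kept while the other is degraded. The 3p forms of the miR-130 and miR-301 family share a seed and are known as repressors of Pparg, the nuclear receptor of fat cell formation. miR-130a is also known from endothelial cells, where it favours vessel growth in human cultures.

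The mature sequences show that the family falls into 2 kinds of molecule by seed, and which mRNAs each kind binds was not examined. The sequences were taken from the RefSeq table of GRCm38.p6, in which 4 of the 5 members were matched. They are written from the 5′ end with the seed in capitals. The first 3 are the 3p members and carry 1 seed, and the last is the only 5p member, with an unrelated seed.
miR-130a-3p: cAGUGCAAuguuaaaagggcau
miR-130b-3p: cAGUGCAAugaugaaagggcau
miR-301a-3p: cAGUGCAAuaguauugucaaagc
miR-130b-5p: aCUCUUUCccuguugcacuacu

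miR-130a-3p and miR-130b-3p are both 22 bases long and differ at 2 positions, U11A and A13G, counted from the first base of miR-130a-3p and with its base given first. The alignment allowed up to 3 mismatches, so that a read carrying errors could be placed on the wrong one of these copies, and the split between them is uncertain. A read moved from one to the other leaves their sum as it is. miR-130a-3p and miR-301a-3p share their first 9 bases. The remaining member, miR-301b-3p, belongs to the same family by name.

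The hairpins lie at 3 places in the genome. Mir130b (chromosome 16 of mm10, 17124061 to 17124142, minus strand) and Mir301b (chromosome 16, 17124400 to 17124496, minus strand) are 257 bases apart and lie in an intron of 2610318N02Rik, a protein-coding gene on the same strand in GENCODE M21. Mir301, the hairpin of miR-301a (chromosome 11, 87113004 to 87113089, plus strand), lies in an intron of Ska2, which codes for a protein of the kinetochore, on the same strand. Mir130a (chromosome 2, 84741115 to 84741178, minus strand) lies between genes, 991 bases from the nearest one, Gm19426. Both arms of Mir130b are members, and its hairpin is printed to show where they sit, with the 5p arm (bases 13 to 34) and the 3p arm (bases 51 to 72) in capitals.
Mir130b: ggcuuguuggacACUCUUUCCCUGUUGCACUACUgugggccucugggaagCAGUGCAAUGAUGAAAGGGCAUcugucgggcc

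The libraries held 550261 reads on mature miRNAs in control mice and 501539 in exposed mice. Normalised reads are counts over the size factor of the library (1.07 for control and 0.937 for exposed mice, by the median of ratios), and ratios below are of normalised reads, exposed to control. Of the 1905 mature miRNAs, 484 had at least 10 reads in the libraries together, with a median of 65.5 reads in control and 56 in exposed mice. Germ cells and somatic cells of the testis were both present. The 4 germ cell miRNAs read as markers took 16.5% and 15.3% of the reads, none past a log2 ratio of 0.5 in size. The 2 of somatic gonad cells (miR-202 arms) took 0.437% and 0.479%. This sum is mostly miR-202-5p (log2 ratio 0.21, interval 0.12 to 0.30), and miR-202-3p was at 0.00 (−0.23 to 0.23). Germ cell miRNAs outside the 4 markers passed 0.5 in either direction, such as miR-34b-5p (0.60) and miR-878-3p (−0.63), named after their values were seen. miR-122-5p of the liver had 0 reads and 1 read.

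miR-130b-5p had by far the most reads of the members, and its share was higher in the exposed library. The control library held 98 of its reads and the exposed library 129. This was 0.0178% of the mature miRNA reads (exact 95% interval 0.0145 to 0.0217%) against 0.0257% (0.0215 to 0.0306%), so that the intervals of the shares overlapped only at their ends. In normalised reads it went from 91.9 to 138, a ratio of 1.50. On the log2 scale the ratio was 0.58 (exact 95% interval 0.19 to 0.98). Among the 484 miRNAs it ranked 37th from the highest log2 ratio, and 6th among the 317 with at least 50 reads. This is the value with which the family came to notice, and it is given as a description. The study's own list of differentially expressed mature miRNAs does not name miR-130b-5p. That list rests on p-values from DESeq, which is another measure than the counting interval given here.

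The 3p members, which carry the seed of the family, were scarce in both libraries. miR-130a-3p was found in 16 control and 19 exposed reads (log2 ratio 0.43, interval −0.60 to 1.49). miR-130b-3p, from the same hairpin as miR-130b-5p, had 10 and 9 reads (0.03, −1.44 to 1.49). miR-301a-3p had 11 and 6 reads (−0.69, −2.41 to 0.87). The interval of each of these 3 ratios held 0, and each was wide enough to hold the ratio of miR-130b-5p too. miR-301b-3p was seen once in the control library and in 0 of 501539 reads of the exposed library, which allows a share of up to 0.000598% (3 reads), and no ratio is given for it. A difference of these 3 between the libraries was thus neither shown nor shown to be absent, and one smaller than the width of the intervals was not detectable at this depth.

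**Figure D1:**
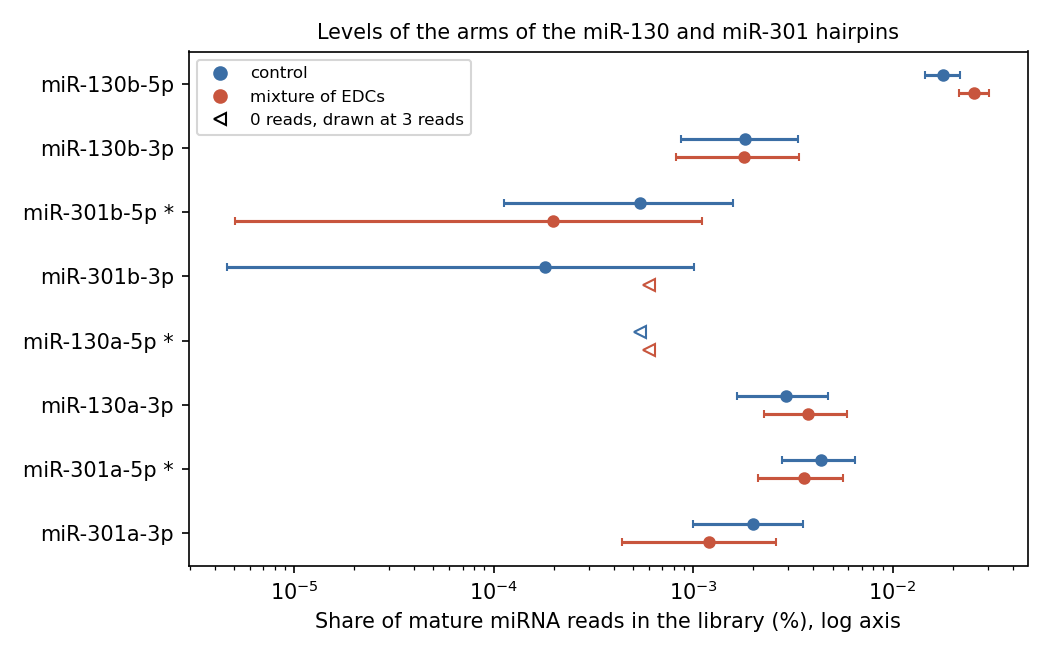
Share of the mature miRNA reads (%, log axis) for both arms of the 4 hairpins in the control library (blue) and the library of exposed mice (red), with exact 95% intervals; open triangles mark 0 reads and are drawn at 3 reads, and an asterisk marks an arm that is not a member. miR-130b-5p stands at 0.0178% and 0.0257%, and no other arm is above 0.00436% (miR-301a-5p) in control or 0.00379% (miR-130a-3p) in exposed mice.

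Of the 4 members with at least 10 reads, 1 (miR-130b-5p) had a log2 ratio of at least 0.5, and 8.47% of the 484 miRNAs did. Another 1 (miR-301a-3p) was at −0.5 or lower, beside 13.2% of the 484. miR-130b-5p was also the only member whose interval lay above 0, a property of 11.2% of the 484, and none had an interval below 0, which 15.5% did. The ratio and the interval together were met by 5 miRNAs (1.03%), with miR-130b-5p one of them. Its higher count was known when the family was picked, so its place among them is a description and no test. Large ratios were common where reads were few: of the 167 miRNAs with 10 to 49 reads, the range of the 3p members, 20.4% were higher and 26.3% lower by this fold, against 2.21% and 6.31% of the 317 with at least 50 reads. The median log2 ratio of the 4 members was 0.23, with 3 above 0 and 1 below, and over all 484 it was −0.04, with 221 above 0. Without miR-130b-5p, the value that brought the family to notice, the median of the 3 seed family members was 0.03, with 2 above 0 and 1 below.

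**Figure D2:**
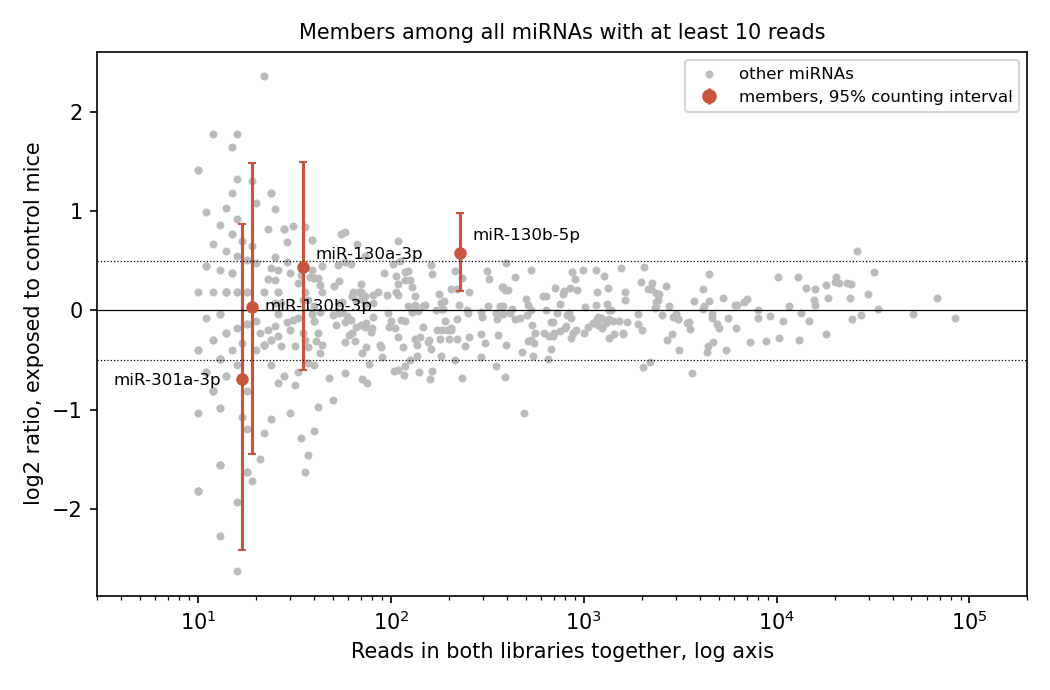
log2 ratio of exposed to control mice against the reads in both libraries together (log axis) for each miRNA with at least 10 reads and a finite ratio; red points are the 4 members with exact 95% intervals, and dotted lines stand at 0.5 and −0.5. The interval of miR-130b-5p runs from 0.19 to 0.98, while those of the 3p members reach across 0, where points with few reads scatter widely.

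Since the 3p members with a printed sequence share a seed, the reads of the 3p members were also added up. miR-301b-3p, which belongs to the family by name, was included. The sum came to 38 control and 34 exposed reads (log2 ratio 0.03, interval −0.69 to 0.73). The share was 0.00691% and 0.00678% of the reads, so the summed seed family stood at nearly the same level in both libraries, and the interval allows a difference of either sign. Without miR-130a-3p, the member with the most reads in this sum, there were 22 and 15 reads (−0.37, −1.42 to 0.65). When miR-130b-5p was added, the sum went from 136 to 163 reads (0.45, 0.11 to 0.79), and most of these reads were miR-130b-5p itself.

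The order of the members was led by miR-130b-5p in both libraries. It had 6.12 times the reads of miR-130a-3p in control mice (interval 3.59 to 11.1) and 6.79 times in exposed mice (4.18 to 11.6). Mature miRNAs are of nearly equal length and a read covers the whole molecule, so reads were compared between members without a correction for length. How readily each sequence enters a library was not measured, so the order is one of reads and not of molecules. miR-130a-3p, miR-301a-3p and miR-130b-3p followed in control mice with 16, 11 and 10 reads. In exposed mice the order of the last pair was turned, with 9 reads of miR-130b-3p and 6 of miR-301a-3p. Neighbours among these 3 did not differ beyond counting error in either library. miR-301b-3p came last in both, beyond counting error (the interval of the ratio of miR-130b-3p to it was 1.42 to 434 in control mice). By reads, miR-130b-5p was at rank 213 of all mature miRNAs in control and 185 in exposed mice, and miR-130a-3p at 359 and 329.

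The arms of the Mir130b hairpin were thus read in very unequal numbers. The 5p arm gave 90.7% of the reads of both arms in control mice (interval 83.6 to 95.5%) and 93.5% in exposed mice (88.0 to 97.0%). There were 9.80 reads of the 5p arm for each read of the 3p arm in control mice, and 14.3 in exposed mice. The log2 ratio of the 5p arm was higher than that of the 3p arm by 0.55, with an interval from −0.97 to 2.08, so that different behaviour of the arms was not shown, and the few reads of miR-130b-3p limit it. A 5p arm of this weight is not rare in these testes. Among 135 hairpins with at least 10 reads on each arm, the 5p arm held the majority in 78 (57.8%) in control mice, and its share was at least that of miR-130b in 43 (31.9%). A difference between the arms of at least 0.55 in size was found in 42 of the 135 (31.1%). The interval of the difference, of whatever size, left out 0 in 22 of the 135 (16.3%), and miR-130b was not one of them. Of the 135, 20 share an arm with a hairpin that differs in the other arm, such as the copies of let-7c. Their arm shares are thus not those of a single hairpin. Hairpins alike in the names of both arms were counted once, so the rest can still join the reads of several copies. Among the other 115, set apart after the data were seen, the 5p arm held the majority in 63 (54.8%), its share was at least that of miR-130b in 28 (24.3%), the difference was at least 0.55 in size in 37 (32.2%), and its interval left out 0 in 21 (18.3%).

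The other arms of the hairpins are not members, and they are shown for comparison because the 5p arms differ in seed from the 3p forms and do not all have the seed of miR-130b-5p. The seed is in capitals.
miR-130a-5p: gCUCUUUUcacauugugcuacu
miR-301a-5p: gCUCUGACuuuauugcacuacu
miR-301b-5p: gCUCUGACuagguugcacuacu

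miR-301a-5p and miR-301b-5p share a seed with each other, and miR-130a-5p and miR-130b-5p have seeds of their own. miR-301a-5p was found in 24 control and 18 exposed reads (−0.23, −1.20 to 0.71), more than its 3p partner in each library, with a 5p share of 68.6% (50.7 to 83.1%) and 75.0% (53.3 to 90.2%). miR-130a-5p had 0 reads in both libraries, whereas its 3p partner had 16 and 19, so that Mir130a was read from the 3p arm only. miR-301b-5p had 3 reads and 1 read. Both arms of Mir301 together had 35 and 24 reads (−0.36, −1.17 to 0.43), and both arms of Mir130b 108 and 138 (0.54, 0.17 to 0.92). Mir301b lies beside Mir130b on the same strand, yet gave only 4 control reads and 1 exposed read. The 4 hairpins with all their arms took 163 and 182 reads (0.35, 0.03 to 0.66). Most reads of this sum and of the Mir130b sum were miR-130b-5p (98 and 129). Both sums therefore repeat the value that brought the family to notice.

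**Figure D3:**
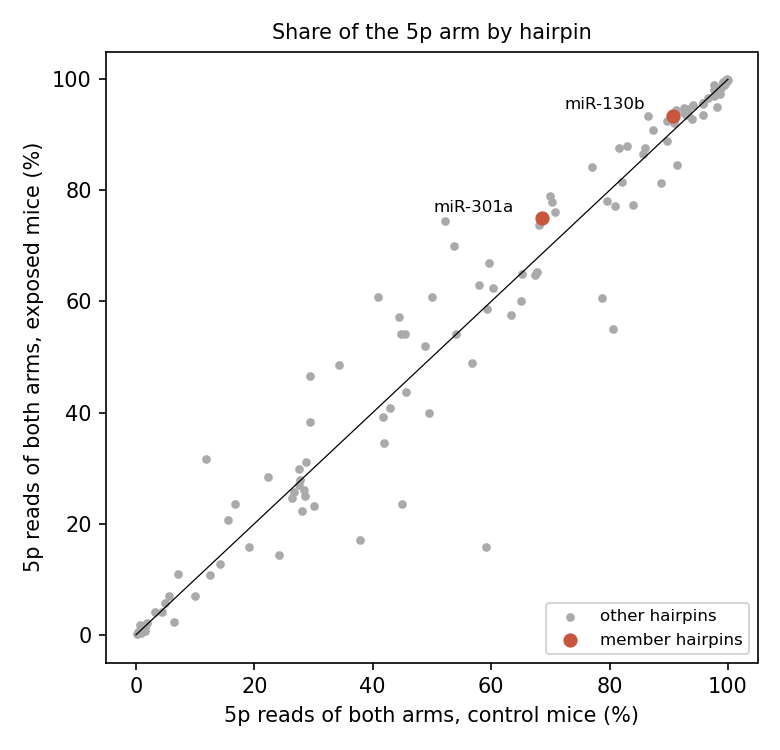
Percentage of the reads of both arms that fell on the 5p arm in control mice (horizontal axis) and in exposed mice (vertical axis), for the 135 hairpins with at least 10 reads on each arm; the line marks equal shares. Red points are miR-130b, at 90.7% and 93.5%, and miR-301a, at 68.6% and 75.0%, both close to the line.

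Counts of other miRNAs with the same or a similar seed were looked up as well. RefSeq lists 7 mature miRNAs with the seed of miR-130a-3p at bases 2 to 8, of which 3 are members. The other 4, miR-130c, miR-721, miR-6341 and miR-6389, had 0 reads in both libraries, which allows each a share of up to 0.000545% in control and 0.000598% in exposed mice. The only other miRNA with the seed of miR-130b-5p, miR-7014-3p, had 0 reads as well. miR-19a-3p and miR-19b-3p, which belong to the miR-17-92 cluster, hold 6 bases of the family's seed, GUGCAA, at bases 2 to 7, where the 3p members have them at bases 3 to 8. They are printed with these bases in capitals, to show how a pair with many more reads resembles the family.
miR-19a-3p: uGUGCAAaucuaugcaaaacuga
miR-19b-3p: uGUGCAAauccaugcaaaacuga

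miR-19b-3p was found in 1136 control and 868 exposed reads (−0.20, −0.33 to −0.07) and miR-19a-3p 390 and 336 (−0.03, −0.24 to 0.19). Neither reached 0.5 in size. The pair together took 0.277% and 0.240% of the reads, against 0.00691% and 0.00678% for the 3p members, and miR-19b-3p is made from several hairpins, so that 1 read could be counted more than once.

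Cell types that could carry these miRNAs were read beside the members. The 2 endothelial markers, the arms of miR-126a, summed to 3752 control and 2948 exposed reads (−0.16, −0.23 to −0.09). This sum is mostly miR-126a-3p (−0.18, −0.25 to −0.11), and miR-126a-5p was at 0.06 (−0.20 to 0.31). The 2 of red blood cells, miR-451a and miR-144-3p, had 118 and 133 reads (0.36, −0.01 to 0.73), and miR-451a alone was at 0.40 (0.00 to 0.80). The 4 of white blood cells had 205 and 177 reads (−0.03, −0.32 to 0.27), with 1 of them past 0.5 in size, miR-150-5p (−0.97, −2.04 to 0.02). The white blood cell marker with the most reads, miR-142a-5p, was at 0.21 (−0.18 to 0.61). The 3 of connective tissue had 3207 and 2789 reads (−0.01, −0.09 to 0.06). The 2 of smooth muscle summed to 35182 and 33736 reads (0.13, 0.10 to 0.15). This sum is mostly miR-143-3p (0.13, 0.11 to 0.15), and miR-145a-5p was at 0.00 (−0.15 to 0.16). The part of these cells in the values of the family was not tested. In pooled tissue, fewer cells of a type and less RNA per cell cannot be told apart.

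The miRNAs with the log2 ratio nearest to that of miR-130b-5p were, among those with at least 50 reads, miR-34b-5p (0.60), miR-147-3p (0.54) and miR-7221-3p (0.66). miR-34b-5p, a germ cell miRNA, had 11198 and 14881 reads and was thus far deeper than miR-130b-5p. Nearest to the summed seed family were miR-101b-3p (0.02), miR-503-5p (0.02) and miR-151-3p (0.04). Likeness here is the absolute difference of log2 ratios between only 2 libraries.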

How the data were processed

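sncRNA-Seq of testes gave 1 library from pooled control mice and 1 from pooled exposed mice. The authors deposited whole read counts per mature miRNA, not normalised. Per the study's methods, adapters were trimmed with cutadapt, and reads were aligned to mm10 with bowtie (up to 3 mismatches, all alignments of the best stratum) and counted with HTSeq on miRBase v21. Their versions: not given in the sources used here. Ambiguous reads, which name no miRNA, were 0.528% and 0.515% of the reads and were left out of totals.

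Counts were scaled by the median of ratios. log2 ratios carry exact 95% Clopper-Pearson intervals, and differences between arms the conditional exact interval of the odds ratio. No p-value is given: there is 1 library per group, and the members, lists and the fold of 0.5 were chosen with earlier results of these data known. No molecular identifiers are named, so PCR copies may make intervals too narrow. Ratios were described where a miRNA reached 10 reads over both libraries. Named were the members, the other arms of their hairpins, miRNAs with the same seed or with GUGCAA within bases 2 to 8, and the 3 miRNAs nearest in log2 ratio. Sequences and hairpin positions came from RefSeq (GRCm38.p6, the assembly of mm10), in which 1621 of the 1905 miRNAs were matched by name, and host genes from GENCODE M21. Alternatives were other scalings, a pseudocount, other minimums of reads and other folds. Python 3.11.15, scipy 1.17.1, pandas 2.3.3, R 4.3.3 and edgeR 4.0.16 (TMM only) were used. IsomiRs, precursors and RT-qPCR were not analysed here.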

Additional observations from a re-analysis of the deposited data

How the results depend on the processing

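Scaling by total reads, by TMM or by a total that leaves out the 10 miRNAs with the most reads shifted every log2 ratio by −0.05, 0.03 and −0.03. Over these and a pseudocount of 0.5 reads, miR-130b-5p ranged from 0.53 to 0.61, miR-130a-3p from 0.38 to 0.46 and miR-301a-3p from −0.74 to −0.64, each on its side of 0.5 in size. miR-130b-3p (−0.02 to 0.06) and the summed seed family (−0.03 to 0.05) changed sign around 0. Adding miR-130b-5p or all arms of the hairpins to the sum, chosen after seeing the data, gave 0.45 and 0.35.

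With a fold of 1 on the log2 scale no member was higher (0) or lower (0). Of the 484 miRNAs, 14 were higher and 24 lower at that fold. With 0.25, 2 of the 4 members were higher and 1 lower, beside 105 higher and 135 lower of the 484. A minimum of 50 reads left 1 member higher (miR-130b-5p) and 0 lower, because miR-301a-3p has fewer reads. Of the 317 miRNAs with that many reads, 7 (2.21%) were higher and 20 (6.31%) lower. With no minimum but 1 read in each library, 1 member was higher and 1 lower. Of all miRNAs in that larger set, 99 were higher and 114 lower. Against a total without the 10 most abundant miRNAs, the share of miR-130b-5p was 0.0285% in control and 0.0419% in exposed mice. No paired analysis was possible because each group has 1 library. Depth limits the 3p members, which have at most 19 reads in a library.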
